A study of Mus musculus with 64 samples.

Results

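Collagen genes were followed in mouse pancreatic tumour cells grown alone or beside fibroblasts. The members were all genes of the count table whose symbol has the form Col, a number, a and a number, and 44 of the 39017 genes in the table met that rule. The samples were 7 clones (E, H, K, M, N, T and V) and the line KPC1, murine pancreatic tumour cells of C57BL/6 mixed strain background. The clones came from 1 tumour of the KPC mouse model, in which Pdx1-Cre acts in the pancreas and mutant Trp53 is carried, so each of E to V is 1 clonal line of that origin in both cultures. The name of KPC1 points to the same model, and its alleles are not given in the sources used here. Both cultures were sequenced in 4 libraries per line, and the coculture libraries held tumour cells sorted on their green fluorescent protein after 48 h with fibroblasts. The fibroblasts' source, whether mono-cultures were sorted, and whether replicates were separate cultures are not given in the sources used here, so the p-values between libraries measure only their spread, which may be technical.

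Collagens are secreted proteins built from chains wound around each other into a helix. Some are made of a single gene's product, while others need chains of several genes in fixed proportion, and a missing partner limits which molecule can form. Fibril-forming collagens such as types I, III and V build the scar-like stroma of pancreatic cancer, for which fibroblasts are the best-known source. Network-forming type IV collagen is the sheet of the basement membrane that epithelial cells rest on, and multiplexins such as type XVIII sit beside it.

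Library totals were between 11178721 and 21333683 counts, with a median of 15648009.5. Collagen genes took 0.162 to 0.413% of the counts in mono-culture libraries and 0.199 to 0.564% in coculture libraries. The labelled cell type was checked against 12 epithelial markers. Krt8, Krt18, Krt19 and Sox9 were at 85.7 CPM (counts scaled to the library total) or more in mono-culture of all 8 lines. Cdh1 ranged from 0.986 to 308 CPM there. The others were low, so the list gave a mixed picture. Epcam, Cldn4, Cldn7 and Esrp1 stayed at or under 0.371, 0.843, 0.359 and 0.0304 CPM. Krt7, Muc1 and Elf3 had medians over lines of 1.98, 2.40 and 3.47 CPM. In bulk RNA, fewer cells of a type and less RNA per cell cannot be told apart.

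Signal from several fibroblast markers moved with the culture. Of the 20 fibroblast markers, 10 were under 1 CPM in mono-culture of every line and Lum, Thy1 and Tcf21 were at 0 there. Their summed level was 362 to 1562 CPM in mono-culture and 592 to 1438 CPM in coculture, and Fbln2, which the tumour lines also made, held most of it. This sum was lower in coculture in K (1562 to 1438 CPM) and V (1520 to 1244 CPM) and higher in the other lines. The 4 highest in coculture were Fbln2, Pdgfrb, Prrx1 and Postn by median, and Tcf21 stayed at 0. Dcn, Fap, Postn and Thy1 together were at 0.0146 to 0.0760 CPM in mono-culture and at 59.3 to 93.1 CPM in coculture. Within a line, the coculture libraries differed in this sum, in V from 14.6 to 104 CPM and in K from 26.3 to 155 CPM. Of 6 immune markers, Cd68 alone passed 1 CPM, and Cd3e and Adgre1 were among those at 0 in coculture. In the test over lines that was used for the collagens, 10 of 15 tested fibroblast markers rose and 1 fell, 1 of 8 epithelial markers rose and 3 fell, the 1 immune marker tested rose, and of 2 endothelial markers 1 rose and 1 fell. All genes gave 27.2% higher and 27.4% lower in that test. The part of these signals in the collagen results was not tested.

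The 44 members fell into 4 classes by their level in the 8 lines, taken as CPM of the reads summed over the 4 libraries of a line and culture. In 18 members no sum reached 1 CPM. 8 members were seen mainly in coculture, which here means 1 CPM or more in coculture in at least 4 lines and at least 4 times the mono-culture level in at least 6 lines. Of the members not in that class, 8 were made in mono-culture by all 8 lines at 1 CPM or more, and 10 by some lines only. Col1a1, Col3a1 and Col6a2, which were mainly in coculture, also reached 1 CPM in mono-culture of all 8 lines. These classes use the levels of both cultures, so the difference between cultures within a class is a description. Just inside the limit, Col4a6 and Col6a2 met the ratio in 6 lines, and just outside it, Col11a1 and Col12a1 met it in 5.

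**Figure D1:**
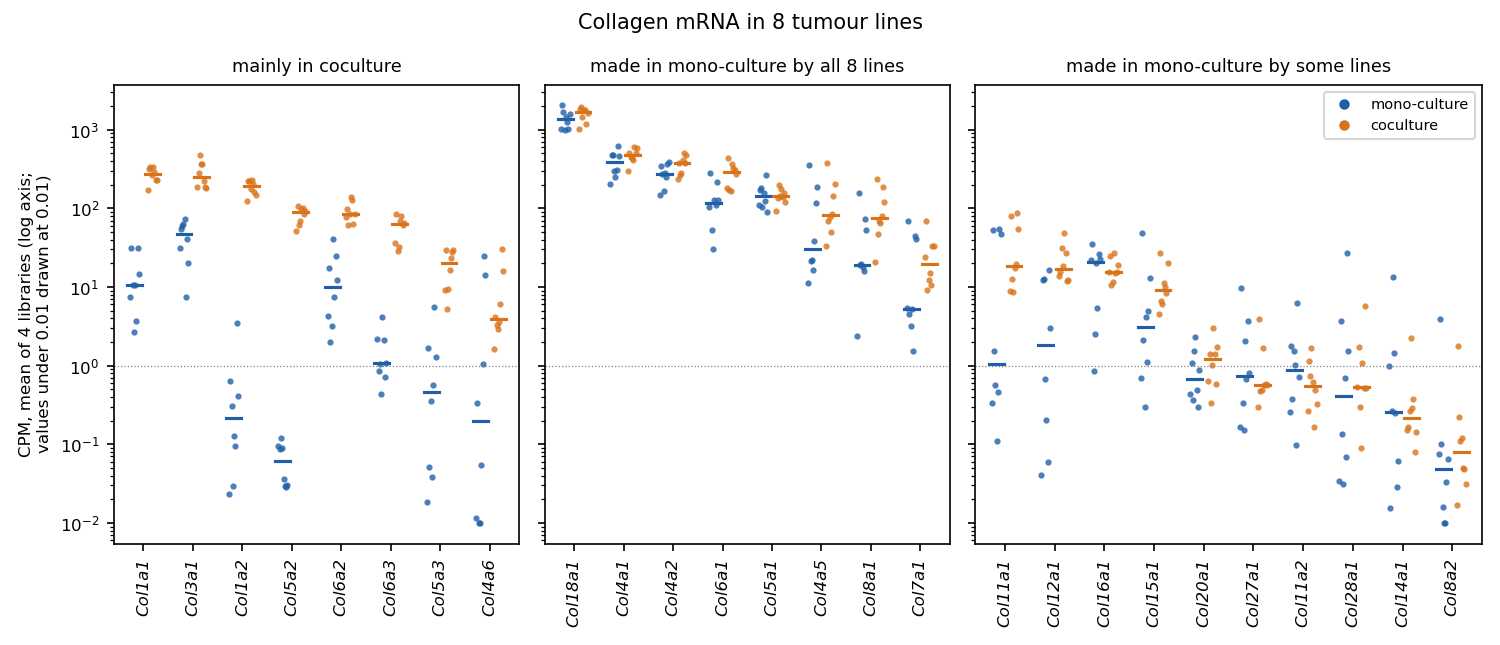
Level of the 26 collagen genes that reached 1 CPM in any line, in CPM on a log axis, as the mean of 4 libraries. Each point is 1 of 8 lines, bars are medians over lines, blue is mono-culture and orange coculture. Col5a2 lies under 0.2 CPM in mono-culture of all lines and above 50 CPM in coculture, while Col18a1 lies at 973 CPM or above in both.

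Tested over the 8 lines with each line as its own control, many collagen genes were higher in coculture libraries and none was lower past the threshold. The part of the fibroblast marker signal in these libraries was not tested. Of the 26 members with enough counts to be tested, 19 rose, beside 27.2% of all 14478 genes tested (edgeR's quasi-likelihood test, adjusted p under 0.1). With a log2 fold change of at least 1 the count was 15, beside 5.07% of all genes. No member fell past the threshold in this test or by DESeq2, and 0 were lower at an unadjusted p under 0.05 by edgeR, beside 27.4% of all genes lower past the threshold and 3.99% lower by a log2 fold change of at least 1. The median log2 fold change was 1.17 for the members tested and -0.001 for all genes. For 6 members the coculture level of every line was above the mono-culture level of every line, which held for 1.19% of all genes, and for none was it below, beside 0.0276%. The filter keeps a gene that is high in coculture alone, so these counts cover the members that passed it and not all 44. Without it, Col4a3 and Col4a4 fell at levels of 0.54 CPM or less. The fall of Col4a3 was not seen in the authors' own values per length.

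The type I fibril is built from Col1a1 and Col1a2 chains. Col1a1 was made at a low level by every line in mono-culture, at 2.65 CPM in the lowest line, 10.6 CPM in the median and 31.7 CPM in the highest. In coculture it was at 168, 275 and 345 CPM. No line overlapped, and the log2 fold change was 4.68 ± 0.45 (SE, n = 8 lines; edgeR adjusted p = 0.000191). Its partner Col1a2 was almost absent from mono-culture, at 0.0288, 0.218 and 3.47 CPM from the lowest to the highest line. In coculture Col1a2 was at 120, 191 and 226 CPM. Every coculture line lay above every mono-culture line, and clone V alone exceeded 1 CPM in mono-culture, at 3.50 ± 0.82 CPM (SD, n = 4). The log2 fold change of Col1a2 was 9.03 ± 0.67 (SE, n = 8 lines; edgeR adjusted p = 3.26e-05).

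Type III collagen is a homotrimer of Col3a1 that mixes into type I fibrils. It was the fibrillar gene of this class with the highest mono-culture level, at 7.26, 48.1 and 74.4 CPM in the lowest, median and highest line. In coculture Col3a1 was at 180, 253 and 483 CPM, again with no overlap. The log2 fold change was 2.85 ± 0.28 (SE, n = 8 lines; edgeR adjusted p = 0.00024). Clone T had the lowest mono-culture level, at 7.36 ± 1.74 CPM, and the largest rise.

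Type V collagen starts fibrils, and its chains showed the widest split between partners. Col5a1 was made by all lines in mono-culture, at 89.8, 142 and 268 CPM. In coculture it was at 90.1, 141 and 197 CPM. The ranges overlapped almost fully, and the log2 fold change was 0.00 ± 0.13 (SE, n = 8 lines; edgeR adjusted p = 0.993). Col5a2, the usual partner of Col5a1, had 2 to 7 reads per line in mono-culture, or 0.0292, 0.0588 and 0.118 CPM. In coculture Col5a2 was at 51.1, 92.3 and 111 CPM, and the 2 cultures were far apart in every line. The fitted log2 fold change was 10.31 ± 0.26 (SE, n = 8 lines; edgeR adjusted p = 1.84e-08), a size that depends on the prior count at so few reads. With reads pooled over lines, 32 in mono-culture and 41717 in coculture, the ratio per total count was 1350 (95% exact interval of counting error, 959 to 1980).

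Col5a3, the third type V chain, was under 1 CPM in mono-culture of 5 lines. Its mono-culture levels were 0.0144, 0.462 and 5.69 CPM, and in coculture they were 5.37, 19.4 and 30.99 CPM. The 2 ranges touched, since clone V in mono-culture exceeded clone K in coculture, but all 8 lines were higher in coculture. The log2 fold change was 5.02 ± 0.60 (SE, n = 8 lines; edgeR adjusted p = 0.00071).

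Type VI collagen forms beaded filaments from Col6a1, Col6a2 and Col6a3 chains in equal number. Col6a1 was plentiful in mono-culture, at 30.2, 118 and 287 CPM, and in coculture it was at 166, 304 and 442 CPM. All 8 lines were higher in coculture though the ranges overlapped, with a log2 fold change of 1.28 ± 0.20 (SE, n = 8 lines; edgeR adjusted p = 0.00183). Col6a2 was at 1.99, 9.81 and 40.9 CPM in mono-culture and at 62.2, 87.3 and 135 CPM in coculture. Its ranges did not overlap, and its log2 fold change was 3.27 ± 0.45 (SE, n = 8 lines; edgeR adjusted p = 0.00122). Col6a3 was lower still in mono-culture, at 0.432, 1.05 and 4.08 CPM, and reached 28.9, 65.6 and 86.4 CPM in coculture. Its lines did not overlap between cultures either, with a log2 fold change of 5.37 ± 0.37 (SE, n = 8 lines; edgeR adjusted p = 1.98e-05).

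Col4a6, the last member of the class, is a basement membrane chain that pairs with Col4a5. It was at 0 CPM in the lowest line, 0.204 CPM in the median and 25.3 CPM in the highest in mono-culture, and at 1.58, 3.85 and 30.8 CPM in coculture. The mono-culture range was set by 2 lines, V at 25.1 ± 0.3 CPM and KPC1 at 14.4 ± 2.9 CPM (SD, n = 4), and these 2 did not change past the threshold. The log2 fold change over lines was 3.30 ± 0.89 (SE, n = 8 lines; edgeR adjusted p = 0.0144).

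The members made in mono-culture by all lines were led by type XVIII collagen. Col18a1, whose product is cleaved to endostatin, was at 973, 1358 and 2042 CPM in mono-culture and at 1012, 1698 and 1904 CPM in coculture. The ranges overlapped, and 6 of 8 lines were higher in coculture. The log2 fold change was 0.21 ± 0.08 (SE, n = 8 lines; edgeR adjusted p = 0.0608), a call lost without any of clones M, N, T or V, where adjusted p was 0.132, 0.113, 0.145 and 0.107. Within single lines clones M and T passed, M from 986 ± 98 to 1446 ± 91 CPM and T from 1263 ± 133 to 1785 ± 44 CPM (SD, n = 4). With the replicate number as a block, clone N also passed, with a log2 fold change of 0.33 (edgeR adjusted p = 0.0218 with the block and 0.107 without).

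Col4a1 and Col4a2, the 2 chains of the common type IV collagen, were the next highest. Col4a1 was at 207, 383 and 626 CPM in mono-culture and at 294, 477 and 606 CPM in coculture, with a log2 fold change of 0.35 ± 0.13 (SE, n = 8 lines; edgeR adjusted p = 0.0506). That call was lost without any of clones E, M, N or T, where adjusted p was 0.106, 0.101, 0.111 and 0.119. Col4a2 was at 151, 275 and 385 CPM in mono-culture and at 233, 388 and 507 CPM in coculture, with a log2 fold change of 0.44 ± 0.11 (SE, n = 8 lines; edgeR adjusted p = 0.0124). Both ranges overlapped.

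Col4a5, Col8a1 and Col7a1 rose from levels that differed widely between lines. Col4a5, an X-linked type IV chain, was at 11.3, 30.2 and 352 CPM in mono-culture and 33.05, 81.2 and 383 CPM in coculture, with a log2 fold change of 1.04 ± 0.23 (SE, n = 8 lines; edgeR adjusted p = 0.00595). Col8a1, a short-chain network collagen, was at 2.37, 19.2 and 155 CPM in mono-culture and 20.5, 73.9 and 241 CPM in coculture, with a log2 fold change of 1.67 ± 0.23 (SE, n = 8 lines; edgeR adjusted p = 0.00122). Col7a1, the anchoring fibril chain of epithelia, was at 1.56, 5.24 and 68.4 CPM in mono-culture and 9.18, 19.3 and 68.8 CPM in coculture. For Col7a1 the log2 fold change was 1.06 ± 0.38 (SE, n = 8 lines; edgeR adjusted p = 0.0429), and without clone E adjusted p was 0.106. The 3 genes overlapped between cultures because the highest mono-culture lines reached coculture levels.

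Among the 10 members made in mono-culture by some lines, 4 rose over lines. Col11a1, a fibril-nucleating chain often used as a marker of cancer-associated fibroblasts, was at 0.113, 1.05 and 54.9 CPM in mono-culture and 8.53, 17.98 and 89.1 CPM in coculture (log2 fold change 2.86 ± 0.78, SE, n = 8 lines; edgeR adjusted p = 0.0151). Col12a1, a FACIT that sits on fibril surfaces, was at 0.0432, 1.84 and 16.6 CPM in mono-culture and 12.7, 16.8 and 45.2 CPM in coculture (log2 fold change 3.42 ± 1.21, SE, n = 8 lines; edgeR adjusted p = 0.0415). Col15a1, a multiplexin like Col18a1, was at 0.293, 3.10 and 48.7 CPM in mono-culture and 4.46, 9.37 and 26.97 CPM in coculture (log2 fold change 1.64 ± 0.50, SE, n = 8 lines; edgeR adjusted p = 0.0237). All 3 overlapped between cultures. The fourth, Col20a1, another FACIT, was under 3 CPM in every sum, and its log2 fold change of 0.49 ± 0.22 (SE, n = 8 lines; edgeR adjusted p = 0.0947) lost its call without any of clones E, H, N, T or V or without KPC1, with adjusted p of 0.129 to 0.218.

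The other 6 members of that group did not pass over lines. Col16a1, a FACIT, was at 0.843, 21.01 and 35.7 CPM in mono-culture and 10.9, 15.7 and 26.2 CPM in coculture (log2 fold change 0.59, edgeR adjusted p = 0.333). Col11a2, Col14a1, Col27a1 and Col28a1 had a median under 1 CPM in both cultures and log2 fold changes of -0.59, -0.75, -0.36 and 0.12. Col8a2, the partner of Col8a1, had too few counts to be tested over lines and passed 1 CPM in clone H alone.

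Partner chains were compared per length, as ratios of the authors' RPKM (reads per kilobase of gene, scaled to the library total). In mono-culture Col1a1 exceeded Col1a2 by 19.1-fold in the lowest line, 114-fold in the median and 556-fold in the highest. In coculture the same ratio was 2.69, 2.80 and 2.97. Col1a2 had 2, 12.5 and 226 reads in the lowest, median and highest line of mono-culture, so the spread of the mono-culture ratios holds counting error. The lines held nearly the same ratio after coculture, and no line overlapped between cultures. The length behind RPKM matters for its size, since the values imply a length of 13700 bases for Col1a2 and 7120 for Col1a1, near the merged exons of all annotated transcripts.

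Other partners differed as well. Col5a1 exceeded Col5a2 by 1280-fold or more in every mono-culture and by 1.45- to 3.72-fold in coculture. The mono-culture ratio rests on 2 to 7 reads of Col5a2 per line, so its size is uncertain. Col6a1 exceeded Col6a3 by 80.6- to 914-fold in mono-culture and by 10.3- to 15.3-fold in coculture, and Col6a2 by 6.05- to 53.7-fold and 3.77- to 9.41-fold. Col4a1 and Col4a2 were balanced in both, with a ratio of 0.777 to 1.55 in mono-culture and 0.852 to 1.45 in coculture. Col4a5 exceeded Col4a6 by 5.47- to 1720-fold in the 6 mono-cultures with a value for both and by 5.39- to 105-fold in coculture, so that type IV pair was unbalanced in either culture. Type XI moved the other way, with a median ratio of Col11a1 to Col11a2 of 2.22 in mono-culture and 29.5 in coculture. Col8a1 was at least 118-fold over Col8a2 in coculture of every line.

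**Figure D2:**
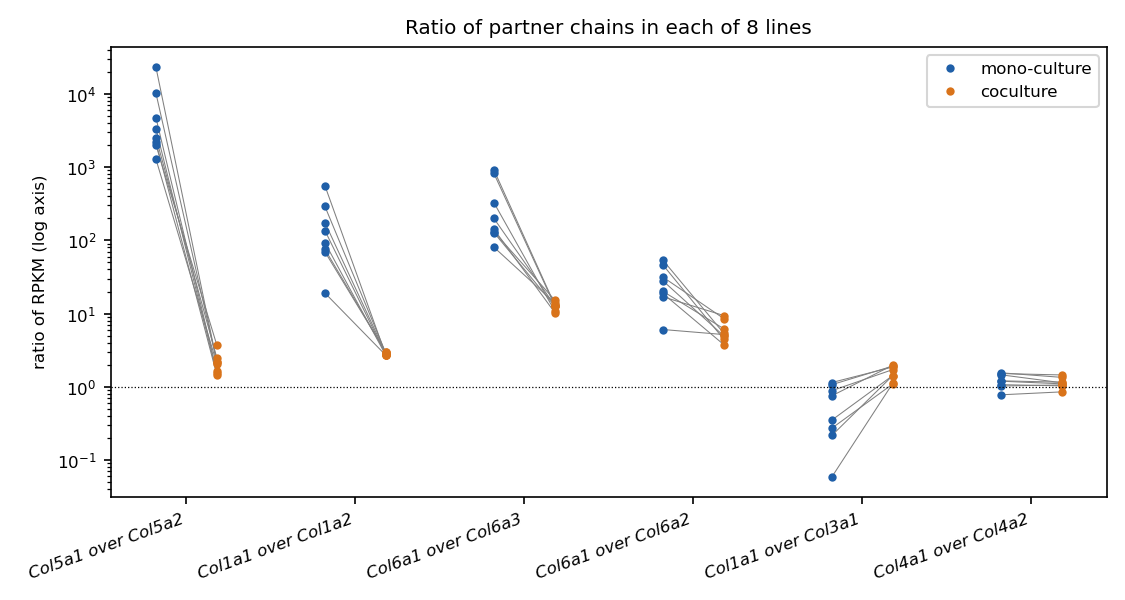
Ratio of the RPKM of partner chains in each of 8 lines, on a log axis, with mono-culture in blue, coculture in orange and a grey line joining the 2 cultures of a line. The Col1a1 to Col1a2 ratio runs from 19.1 to 556 in mono-culture and from 2.69 to 2.97 in coculture, while Col4a1 to Col4a2 stays near 1.

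Summed over all members, collagen RPKM was 218 to 537 in mono-culture and 342 to 687 in coculture, a ratio of 1.27 (V) to 2.20 (M). In mono-culture Col18a1 held a median of 56.9% of it and Col4a1 with Col4a2 26.7%. The members seen mainly in coculture held 0.820 to 4.02% in mono-culture and 15.5 to 22.9% in coculture. They made up 33.4 to 70.1% of the gain in each line, with a median of 54.3%. Col18a1 still held 30.1 to 45.1% in coculture, with a median of 38.2%.

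**Figure D3:**
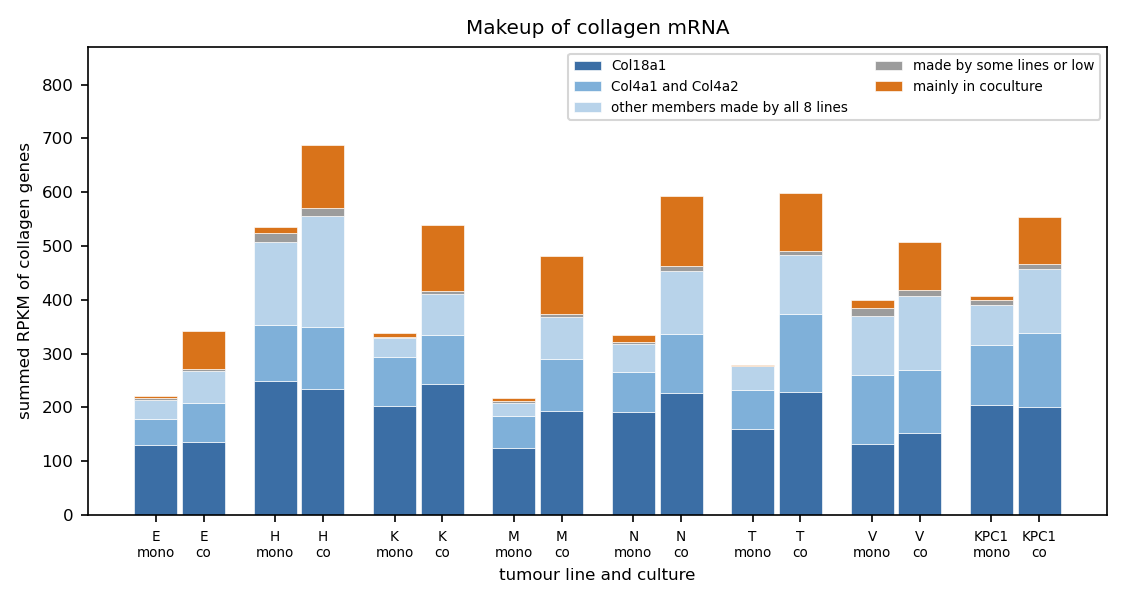
Summed RPKM of collagen genes by line and culture, stacked by set, as means of 4 libraries. The orange segment, the members mainly in coculture, is 0.820 to 4.02% of a mono-culture bar and 15.5 to 22.9% of a coculture bar.

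Differences between lines were smaller in coculture. The members used were the 25 that were tested and averaged 1 CPM or more over the 16 sums of both cultures. Their SD over lines of log2(CPM + 0.5) had a median of 1.25 in mono-culture and 0.62 in coculture. This SD was smaller in coculture for 23 of 25 members, or 92% of them, beside 56.9% of 12011 genes at that level, whose median SD was 0.36 in both. Col12a1 went from an SD of 2.17 to 0.67 and Col16a1 from 1.73 to 0.45. Col5a2, near 0 in every mono-culture, went the other way, from 0.09 to 0.39.

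The lines themselves differed in mono-culture. In the test between the 8 lines, 26 of 27 members differed, beside 95.1% of 14134 genes, so this is not particular to collagens. Col5a2 alone did not pass (edgeR adjusted p = 0.994). For 11 of the 25 members that reached 1 CPM in mono-culture, the 3 highest lines were H, V and KPC1, or 44% of them, beside 8% of 12739 genes at that level. Those 11 were Col1a1, Col1a2, Col4a2, Col4a5, Col5a3, Col7a1, Col8a1, Col11a1, Col15a1, Col16a1 and Col28a1. They include fibrillar, network, anchoring and multiplexin genes, and these counts are a description with no test.

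For some members 1 line stood far above the others in mono-culture. Col14a1, a FACIT, was at 13.4 ± 6.2 CPM in clone M in mono-culture (SD, n = 4) and under 1.5 CPM in all other lines. Col28a1, a relative of the beaded-filament chains, was at 27.2 ± 6.2 CPM in clone V and at 3.68 ± 0.33 CPM in H, the next highest. Col8a2 was at 3.94 ± 0.82 CPM in H and near 0.1 CPM or under elsewhere. Col15a1 was at 48.8 ± 6.3 CPM in H against 12.97 ± 3.3 CPM in KPC1, the next highest, and Col11a2, a chain of type XI, at 6.26 ± 3.39 CPM in V against 1.78 CPM in H.

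Within each line the response was tested on 4 libraries against 4, with 27 members tested of 14134 genes (edgeR's quasi-likelihood test, adjusted p under 0.1). In clone E 18 members rose and 1 fell, beside 32.1% and 29.2% of all genes. In clone H 9 rose and 5 fell, beside 21.4% and 22.6%. In clone K 16 rose and 0 fell, beside 12.5% and 8.02%. These 3 already span much of the range between lines. In clone M 21 rose and 1 fell, beside 21.6% and 17.3%. In clone N 19 rose and 1 fell, beside 20% and 17.4%. In clone T 21 rose and 0 fell, beside 31.5% and 30.7%. In K and T 0 members were lower at an unadjusted p under 0.05 either. The smallest share that rose was that of H. In clone V 10 rose and 6 fell, beside 30% and 31.5%, and in KPC1 13 rose and 2 fell, beside 20.1% and 19%. The median log2 fold change of the members was between 0.34 and 0.51 in H, V and KPC1 and between 1.30 and 2.51 in the other 5 lines, beside -0.01 to 0.03 for all genes.

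**Figure D4:**
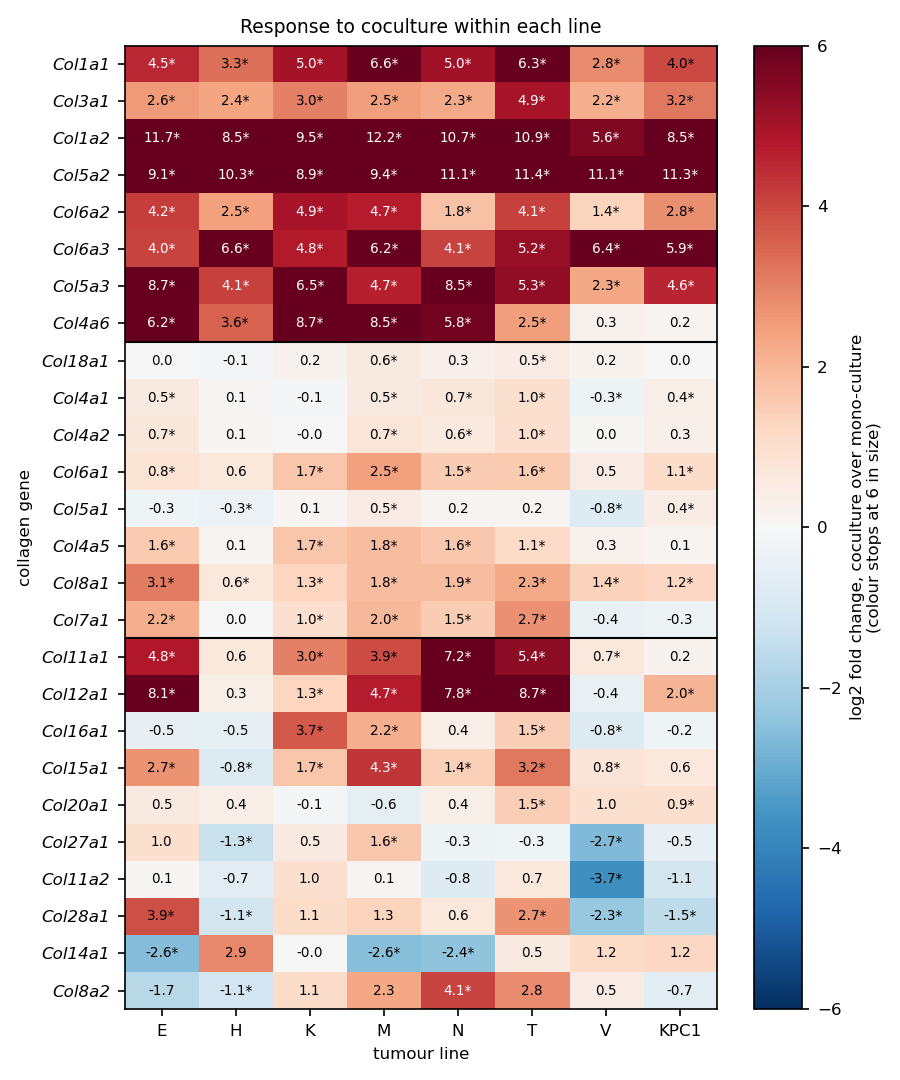
Log2 fold change of coculture over mono-culture within each of 8 lines for 26 collagen genes, with an asterisk where edgeR's adjusted p was under 0.1. Genes are grouped as in the classes, with those mainly in coculture on top, where 7 of 8 rows are called in all lines, and colour stops at a size of 6.

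8 members rose in every line, namely Col1a1, Col1a2, Col3a1, Col5a2, Col5a3, Col6a2, Col6a3 and Col8a1. The share of all genes that rose in every line was not counted, so this is a description of the members. The sizes differed between lines. Col1a1 went from 2.65 ± 0.91 to 267 ± 151 CPM in clone M and from 31.5 ± 7.5 to 227 ± 142 CPM in clone V (SD, n = 4). The 2 clones lay far apart in mono-culture and overlapped in coculture. In the test of a difference in response between lines, 26 of 27 members passed, beside 71.3% of all genes, and Col5a2 alone did not (edgeR adjusted p = 0.959).

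For 8 members the calls went both ways, a pattern that was not counted over all genes. Col11a1 was not among them, rising from 0.111 ± 0.069 to 17.5 ± 8.8 CPM in clone N and from 47.7 ± 17.2 to 54.7 ± 17.8 CPM in KPC1, which did not pass. Col15a1 fell in clone H, from 48.8 ± 6.3 to 27.2 ± 9.98 CPM, and rose in 6 other lines, in M from 0.298 ± 0.205 to 6.01 ± 3.11 CPM. Col16a1 fell in V, from 26.2 ± 3.8 to 15.5 ± 5.4 CPM, with overlapping libraries, and rose in K, from 0.852 ± 0.324 to 10.7 ± 8.5 CPM. The line that fell was the highest in mono-culture for Col15a1 and the next to highest for Col16a1. Col28a1 fell in V, from 27.2 ± 6.2 to 5.65 ± 1.98 CPM, in H and in KPC1, and rose in E and T. Col5a1 fell in V, from 265 ± 28 to 157 ± 38 CPM, and in H, and rose in M, from 104 ± 7 to 145 ± 30 CPM, and in KPC1. Col4a1 fell in V, from 621 ± 10 to 500 ± 95 CPM with overlapping libraries, and rose in 5 lines, in T from 311 ± 30 to 603 ± 57 CPM. Col27a1, a fibrillar gene of cartilage, fell in H and V and rose in M, and Col8a2 and Col24a1 each fell in 1 line and rose in 1, at levels under 1 CPM in the lines where they rose.

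2 members fell in some lines and rose in none, which was not counted over all genes either. Col14a1 fell in M from 13.4 ± 6.2 to 2.27 ± 2.20 CPM, in N and in E. Col11a2 fell in V from 6.26 ± 3.39 to 0.491 ± 0.240 CPM.

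Levels of the collagens mainly in coculture followed the fibroblast markers from library to library. Over the 32 coculture libraries, taken as log2 deviations from the mean of their line, Pearson's r with the sum of all 20 markers had a median of 0.648 over these 8 members. It ran from 0.479 for Col4a6 to 0.723 for Col6a3. For the 8 members made by all lines in mono-culture it ran from 0.573 for Col18a1 to 0.747 for Col6a1. The full list thus did not set these 2 classes apart. With Dcn, Fap, Postn and Thy1 alone, the median was 0.923. They were chosen after their levels were seen, near 0 in mono-culture and higher in coculture, as for Col1a2 and Col5a2. Lum, Pi16, Mfap5, Tcf21, Meox2 and Clec3b were also under 1 CPM in mono-culture of every line. These stayed at 1.73 CPM or less in coculture and were left out, so the r depends on that choice. With Dcn, Fap, Postn and Thy1, r was 0.973 for Col5a2, 0.965 for Col1a2, 0.963 for Col1a1 and 0.938 for Col6a3. For the 8 members made by all lines in mono-culture the median was 0.544, from 0.021 for Col18a1 to 0.890 for Col6a1. For 5 members made by some lines it was 0.709, from 0.468 to 0.908, and for 11835 genes at 1 CPM or more it was -0.004. An r of 0.5 or more was seen for 5.61% of those genes. The points share depth and the sort of their library, and these values carry no test.

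In clone V, Col1a2 ranged from 57.5 to 306 CPM between coculture libraries and the 4 markers from 14.6 to 104 CPM. In clone T, Col1a2 ranged from 145 to 264 CPM and the markers from 51.9 to 106 CPM. In no coculture library of any line was Col1a2 under 57.5 CPM. Across the 8 line levels the relation was looser, with r of 0.770 for Col1a2 and Spearman's rho of 0.786 (n = 8 lines, 4 markers), and r of 0.680 without the 2 lines farthest from the median. For Col5a2 r over lines was 0.115 and for Col5a3 it was -0.376. The 8 members also moved together within lines, with a median r of 0.881 over their 28 pairs. Against the members made by all 8 lines their median r was 0.604 over 64 pairs, from -0.135 to 0.924.

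**Figure D5:**
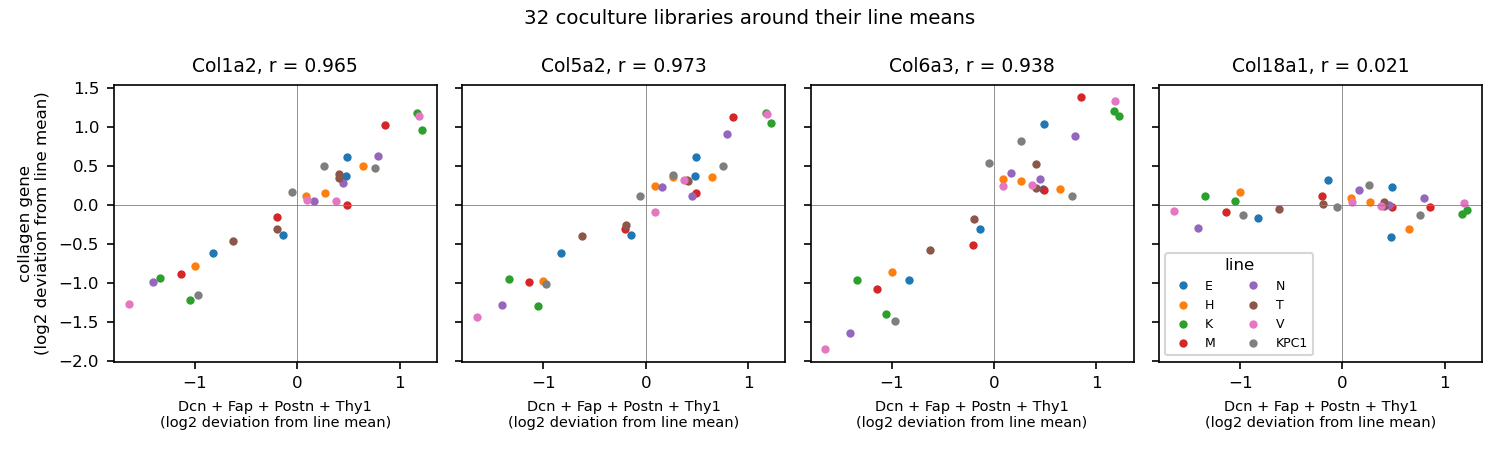
Log2 deviation from the line mean in 32 coculture libraries, with the sum of Dcn, Fap, Postn and Thy1 on the x axis and a collagen gene on the y axis, coloured by line. Col1a2, Col5a2 and Col6a3 follow these 4 markers with r of 0.938 to 0.973, and Col18a1 does not, with r of 0.021. With all 20 fibroblast markers r was 0.636 for Col1a2, 0.683 for Col5a2, 0.723 for Col6a3 and 0.573 for Col18a1.

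The genes that process collagen were counted on a list of 34 for biosynthesis and maturation. Of 31 tested, 11 rose and 5 fell, beside 27.2% and 27.4% of all genes, with a median log2 fold change of 0.14 beside -0.001. The 6 largest rises were Lox and Loxl1, which cross-link fibrils, Tll1, a protease that trims procollagen I ends, P3h2 and Plod2, which hydroxylate proline and lysine, and Adamts14, an N-propeptidase. Lox was at 0.0152, 0.105 and 0.270 CPM in the lowest, median and highest line in mono-culture and at 28.6, 56.2 and 150.5 CPM in coculture, without overlap (log2 fold change 9.24 ± 0.23, SE, n = 8 lines; edgeR adjusted p = 1.84e-08). Loxl1 and Tll1 did not overlap either, with log2 fold changes of 7.24 and 5.24. P3h2, Adamts14 and Plod2 overlapped, with 1.53, 1.29 and 1.02. The 5 that fell were P4ha3 (-1.28), Pcolce (-0.56), Fkbp14 (-0.49), Crtap (-0.40) and P4hb (-0.27), which serve prolyl hydroxylation, propeptide removal and folding. Serpinh1, the collagen chaperone, rose by 0.53 with all 8 lines higher. P4hb was at 838 to 1644 CPM in mono-culture, where the extracellular cross-linker Lox was near 0.

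Of 13 tested genes of a list of 14 for collagen receptors and turnover, 7 rose and 1 fell, beside 27.2% and 27.4% of all genes, with a median log2 fold change of 0.60. Mrc2, an endocytic receptor for collagen, was at 0, 0.0315 and 0.675 CPM in mono-culture and 13.3, 19.99 and 25.1 CPM in coculture (log2 fold change 7.96 ± 0.68, SE, n = 8 lines; edgeR adjusted p = 9.28e-05). Ddr2, the fibrillar collagen receptor of mesenchymal cells, rose by 4.29, Mmp2 by 3.54 and Itga11 by 3.27, and Itga1 and Itga2 by 1.21 and 1.11. Ddr1, the receptor of epithelial cells, was the 1 that fell, from 130, 164 and 217 CPM to 89.9, 114 and 161 CPM in the lowest, median and highest line, lower in all 8 lines (log2 fold change -0.50 ± 0.11, SE, n = 8 lines; edgeR adjusted p = 0.00576). Ctsk rose by 0.60 at levels under 1 CPM.

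Position in the genome was read from GENCODE M21 on GRCm38, the build named mm10 in the labels. Neighbouring collagen genes shared a class in some cases and not in others. Col3a1 (chr1:45311538-45349706, plus strand) and Col5a2 (chr1:45374321-45503282, minus strand) lie tail to tail, 24614 bases apart, and both were mainly in coculture. Col4a1 (chr8:11198423-11312826, minus strand) and Col4a2 (chr8:11312805-11449287, plus strand) start head to head with 22 bases of overlap, and both were made by all lines. The libraries were strand specific, but whether the counting used the strand is not given in the sources used here. Col4a6 (chrX:141165403-141474076, minus strand) and Col4a5 (chrX:141475385-141689234, plus strand) also lie head to head, 1308 bases apart, yet differed by class. So did Col6a2 (chr10:76595762-76623630) and Col6a1 (chr10:76708792-76726168) on the minus strand, 85161 bases apart. Col1a1 (chr11:94936224-94953042) and Col1a2 (chr6:4504814-4541544), both on the plus strand, lie on different chromosomes.

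The 250 bases before the RefSeq gene start (GRCm38.p6) were searched on both strands for 5 short motifs, and 35 of 44 members had a sequence. They were TATAAA, the core promoter box, CCAAT, bound by the factor NF-Y, GGGCGG, bound by Sp1, TGANTCA, which holds the site of AP-1, and the SMAD palindrome GTCTAGAC. Of the 6 mainly-in-coculture members with one, TATAAA was found in 1, CCAAT in 2 and GGGCGG in 4, and of the 8 made by all lines in 0, 5 and 6. TGANTCA was found in Col6a1 alone and GTCTAGAC in none. Among 32851 promoters of the same length these motifs were held by 12.4%, 33.8%, 32.7%, 6.75% and 0.167%. Those shares are per promoter, while a member with 2 promoters, such as Col18a1 or Col6a2, counted if either held the motif. No motif overlapped another in the 4 sequences printed here, shown because they set a chain made in mono-culture beside chains seen mainly in coculture. Matches on either strand are in capitals, and each runs 5′ to 3′ on the gene's strand up to the base before the start. Col5a1 (chr2:27886175-27886424, plus strand) was made by all lines and holds GGGCGG 2 times, with 76.4% G and C. Col5a3 (chr9:20815068-20815317, minus strand), Col3a1 (chr1:45311288-45311537, plus strand) and Col6a3 (chr1:90843972-90844221, minus strand) were mainly in coculture. Col3a1 holds 35.2% G and C with a TATAAA that begins 117 bases before the start, and Col6a3 holds none of the 5 motifs in this window.
Col5a1: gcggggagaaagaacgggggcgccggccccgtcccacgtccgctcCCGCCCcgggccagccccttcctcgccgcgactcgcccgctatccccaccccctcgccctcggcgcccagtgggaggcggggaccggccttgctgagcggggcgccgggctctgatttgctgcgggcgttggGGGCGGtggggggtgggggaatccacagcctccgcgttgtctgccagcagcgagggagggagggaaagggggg
Col5a3: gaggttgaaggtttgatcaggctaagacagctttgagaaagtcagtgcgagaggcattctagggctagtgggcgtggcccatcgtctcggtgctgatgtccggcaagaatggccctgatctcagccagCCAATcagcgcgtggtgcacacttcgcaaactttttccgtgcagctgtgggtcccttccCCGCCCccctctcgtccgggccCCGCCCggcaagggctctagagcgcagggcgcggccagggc
Col3a1: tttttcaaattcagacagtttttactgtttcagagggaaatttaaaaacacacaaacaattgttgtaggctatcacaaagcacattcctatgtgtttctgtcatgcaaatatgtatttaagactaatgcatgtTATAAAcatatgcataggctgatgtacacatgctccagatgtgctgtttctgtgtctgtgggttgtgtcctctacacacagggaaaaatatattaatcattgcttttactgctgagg
Col6a3: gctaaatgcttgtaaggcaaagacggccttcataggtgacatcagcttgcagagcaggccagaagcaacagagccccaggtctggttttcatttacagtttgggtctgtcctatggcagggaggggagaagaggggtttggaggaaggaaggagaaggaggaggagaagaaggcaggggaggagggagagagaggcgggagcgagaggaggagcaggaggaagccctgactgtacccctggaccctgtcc

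The 18 members under 1 CPM in every sum are named with their highest level only. Those that stayed under 0.1 CPM were Col13a1 (0.0143), Col9a1 (0.0189), Col19a1 (0.0286), Col6a6 (0.0491), Col9a2 (0.0547) and Col22a1 (0.0635), which include the cartilage type IX chains and the transmembrane Col13a1. Those under 0.3 CPM were Col10a1 (0.131), Col6a4 (0.139), Col9a3 (0.174), Col2a1 (0.2), Col17a1 (0.27), Col23a1 (0.287) and Col4a4 (0.293), among them Col2a1 and Col10a1 of cartilage and Col17a1 of the hemidesmosome. The highest were Col26a1 (0.34), Col25a1 (0.381), Col6a5 (0.411), Col4a3 (0.54) and Col24a1 (0.633). In the count table Col6a5 had no read in mono-culture of any line and up to 0.411 CPM in coculture. Col4a3 and Col4a4 are type IV chains of the glomerular basement membrane. At these depths 3 reads in the sum of 4 libraries, the count that 0 reads still allow, corresponded to 0.0418 to 0.0588 CPM, and this covers counting error only.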

How the data were processed

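RNA was measured in 64 libraries, 4 for each of 8 lines in mono-culture and 4 in coculture, from polyA RNA prepared with a strand-specific kit and sequenced as 76-base pairs. The authors deposited whole read counts per gene (39017 genes, not normalized) and RPKM values per gene (49585 genes). The submitters' processing notes name featureCounts, edgeR and mm10, and the aligner is not given in the sources used here. Samples were grouped by the line and culture in their labels.

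Counts were scaled by TMM and filtered with filterByExpr in edgeR 4.0.16 (R 4.3.3). For the response over lines, reads were summed over the 4 libraries of a line and culture, and the 16 sums were fitted with the line as covariate, so the line was the replicate. Responses within lines and differences between lines came from 1 fit of all 64 libraries in 16 groups. The quasi-likelihood test was used, with Benjamini-Hochberg adjustment over all genes and a threshold of 0.1. SE was derived from the fold change and its F value. CPM in the text is TMM-scaled, and RPKM, which the authors computed, was used to compare genes with each other. Alternatives used DESeq2 1.42.0, limma 3.58.1 on log2(RPKM + 1) and log2(RPKM + 0.1), other filters, thresholds, libraries and lines. Replicate numbers were taken to pair the libraries of clones M and N, where deviations of every same-numbered pair from the group means correlated at over 0.1 (0.143 to 0.271 in M, 0.345 to 0.44 in N), a sign from the data and not from the labels. The scripts were tested on simulated data. No libraries of a group differed by less than sampling noise. Every member that reached 1 CPM in any of the 16 sums is described with values, the others by their highest level. Pathway genes were named up to 6 in each direction by size of change. P3h1 to P3h4 and Adgre1 carry older symbols in the count table. Proteins and 9 promoters were not analysed here. The members and gene lists were chosen with earlier results of these data known, so their patterns are not independent evidence.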

Additional observations from a re-analysis of the deposited data

Results flagged for a closer look

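68 groups of values were checked for 1 value far from the rest, measured as its gap to the nearest other value over the whole range. They were the 8 line levels of 26 members in each culture and the totals of the 4 libraries of each line and culture. 15 groups passed the 95% limit, where chance flags about 1 in 20, or 3.4, if values are normally distributed. The line levels were CPM without logs and skewed towards high values, so that rate need not hold and no excess over chance can be read from it. In mono-culture, clone V was far above the others for Col1a2 (gap over range 0.837), Col5a3 (0.707), Col11a2 (0.731) and Col28a1 (0.87). Clone H was far above for Col8a1 (0.538), Col8a2 (0.974), Col15a1 (0.74) and Col27a1 (0.645), and clone M for Col14a1 (0.889). In coculture, H stood apart for Col7a1 (0.59), Col8a2 (0.88) and Col27a1 (0.62), V for Col28a1 (0.708) and M for Col14a1 (0.869). The total of replicate 2 of KPC1 in coculture, 11178721 counts, was far below the 3 other libraries (0.867). The sum for KPC1 weights that library by its depth, and leaving out replicate 2 of every line kept the direction of each tested member.

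The response to coculture differed between lines, in opposite directions past the threshold, for 7 members that reached 1 CPM (edgeR's quasi-likelihood test over 8 lines, adjusted p). This pattern was not counted over all genes. The adjusted p was 3.52e-10 for Col16a1, 4.98e-10 for Col28a1, 4.13e-09 for Col15a1, 7.49e-06 for Col5a1, 4.22e-05 for Col4a1, 0.000229 for Col27a1 and 0.00753 for Col8a2.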

How the results depend on the processing

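Of the values of single genes recomputed under an alternative, 481 kept their direction and call, 22 lost a call, 6 gained one and 15 changed sign, none of the last with a call. Calls were lost for Col4a1, Col7a1, Col18a1 and Col20a1 alone, Col18a1 also without replicate 2 (adjusted p = 0.103) and Col20a1 without replicates 3 (0.112) or 4 (0.41), all by edgeR. Col28a1 ran from -0.264 to 0.606 in leave-one-out fits and was below 0 in limma on log2 RPKM with a pseudocount of 1 (-0.212) and of 0.1 (-0.174). Col5a1 ran from -0.07 to 0.105 in leave-one-out fits and was below 0 with library numbers 1 to 43 alone (-0.037). The causes were not tested. The number of members that rose, 19, was 16 to 19 in leave-one-out fits, 16 at adjusted p under 0.05 and 19 with library numbers 1 to 43 alone. Whether these running numbers mark a batch is not given in the sources used here. Without the filter on low counts 44 members were tested and 2 fell, Col4a3 and Col4a4. In the authors' RPKM, Col4a3 was at 0 in mono-culture of every line and at most 0.001855 in coculture, so its fall was in the counts alone. With 64 libraries as replicates 22 rose and 1 fell, Col11a2, and with the replicate number as a block also 22 and 1. Same-numbered mono-culture and coculture libraries correlated at over 0.1 in 22 of 32 pairs (-0.107 to 0.44), and 23 of 32 were highest with their own number. All 4 pairs passed 0.1 in 2 lines, M and N, where the block changed 1 call, Col18a1 in N. In the other 6 lines the libraries were taken to share only a number, though in V all 4 pairs were highest with their own number (0.096 to 0.295). With the block within lines, calls over members and lines went from 127 to 132 higher and from 16 to 23 lower. Members lower went from 1 to 3 in E, 5 to 8 in H, 6 to 7 in V and 2 to 3 in KPC1. At a ratio of 8, 5 members were mainly in coculture, without Col3a1, Col4a6 and Col6a2. By CPM in place of RPKM these members held 23.71% of coculture collagen. Their median within-line r with 20 markers, 0.648, ran from 0.391 to 0.812 without 1 replicate number and was 0.923 with 4 markers, both added after seeing the data. Depth limits the 18 members under 1 CPM and fold changes of Col1a2, Col4a6, Col5a2, Col5a3, Col8a2, Col12a1, Col14a1 and Col28a1, which had 3 reads or fewer in mono-culture of some lines.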
